A study of Mus musculus with 12 samples.

Results

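The mitochondrial ribosomal protein genes are the 77 rows of the deposited gene list, of 13886 rows in all, whose symbols begin with Mrpl or Mrps followed by a digit. Droplet-based 5' single-cell RNA sequencing measured them in 6000 antigen-responding B lineage cells sorted from mouse draining lymph nodes. The 3 mice had received the antigen NP-KLH, mixed into Sigma Adjuvant System, and later tamoxifen by gavage, which switches on the eYFP reporter by which responding cells were sorted as IgD-negative and eYFP-positive. All cells were taken at day 16 of the primary response, 5 days after the gavage. Plasma cells and the other B cells were loaded into different wells, each pooling the 3 mice, and a hashing antibody against CD45 carried the identity of each mouse. The sources used here do not name the strain and age of the mice or the driver of the reporter.

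Each cell carried the authors' call of its state, explained here as the names read. PC are plasma cells (137 cells), prePC are cells leaning toward the plasma cell state (49 cells), preMem are cells leaning toward memory (396 cells), LZtoDZ are light zone cells on the way back to the dark zone (165 cells), and DZ (3040 cells) and LZ (2213 cells) are the dark and light zones of the germinal center. Each cell also carried a cell cycle call of G1 (2833 cells), S (1832 cells) or G2/M (1335 cells). All groups share the same mice, immunogen, adjuvant, tamoxifen gavage and day, so no comparison is between treatments.

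Mitochondrial ribosomes translate the few proteins that the mitochondrial genome encodes, all of them core subunits of the respiratory chain and the ATP synthase. Their ribosomal RNAs are made inside the organelle, but every one of their proteins is encoded in the nucleus, made on cytosolic ribosomes and imported. Some of these proteins descend from bacterial ribosomal proteins and others were added in the mitochondrial lineage. Germinal center B cells depend on mitochondrial translation and respiration as they grow and divide, and B cells selected in the light zone switch on Myc and a growth program before they return to the dark zone.

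By structure, 30 of the members are large-subunit proteins with a bacterial homolog and 20 are large-subunit proteins found only in mitochondria. Another 16 are small-subunit proteins with a bacterial homolog, and 10 are small-subunit proteins found only in mitochondria. Mrps36 was put in no group, because its protein is now known as a component of the 2-oxoglutarate dehydrogenase complex. Mrps18a and Mrps30 keep names of small-subunit proteins but sit in the large subunit, where they were counted. Mrps18a and Mrps18b are related to bacterial S18 but were counted as mitochondria-specific, because bacterial ribosomes have nothing in their places.

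RefSeq gives a window from 250 bases before to 50 bases after the start of the gene (build GRCm38.p6) for 68 of the 77 members, 74 windows in all. Windows are shown for 3 of the 5 members that were raised most in LZtoDZ cells, and for Mrpl43, the member with the smallest change there. Mrps6, the homolog of bacterial S6, has its window at chr16:92058086-92058385 on the plus strand. Mrpl12, the stalk protein homologous to bacterial L7/L12, which has also been reported to bind the mitochondrial RNA polymerase, has its window at chr11:120484387-120484686 on the plus strand. The window of Mrps22, a small-subunit protein without a bacterial homolog, lies at chr9:98601630-98601929 on the minus strand, and that of Mrpl43, a large-subunit protein found only in mitochondria, at chr19:45006393-45006692 on the minus strand. Capitals mark exact matches on either strand. The strings are the E-box CACGTG, the ETS motif CCGGAAG, the NRF1 core GCGCNTGCG, the YY1 core AAGATGGCG and, from the site of ZFP143, ACTACAATT.
Mrps6: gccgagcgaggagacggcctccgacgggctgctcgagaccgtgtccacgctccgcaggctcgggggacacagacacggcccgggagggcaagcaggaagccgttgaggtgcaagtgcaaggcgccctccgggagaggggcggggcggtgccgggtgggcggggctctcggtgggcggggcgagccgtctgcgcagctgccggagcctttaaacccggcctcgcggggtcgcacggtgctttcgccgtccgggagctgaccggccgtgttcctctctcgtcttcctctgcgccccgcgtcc
Mrpl12: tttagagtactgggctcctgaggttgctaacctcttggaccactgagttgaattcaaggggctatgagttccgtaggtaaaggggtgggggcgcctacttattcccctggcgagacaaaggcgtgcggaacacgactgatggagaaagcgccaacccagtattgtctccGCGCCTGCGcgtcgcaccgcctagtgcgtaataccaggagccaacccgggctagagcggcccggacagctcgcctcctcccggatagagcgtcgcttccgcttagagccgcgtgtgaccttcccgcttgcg
Mrps22: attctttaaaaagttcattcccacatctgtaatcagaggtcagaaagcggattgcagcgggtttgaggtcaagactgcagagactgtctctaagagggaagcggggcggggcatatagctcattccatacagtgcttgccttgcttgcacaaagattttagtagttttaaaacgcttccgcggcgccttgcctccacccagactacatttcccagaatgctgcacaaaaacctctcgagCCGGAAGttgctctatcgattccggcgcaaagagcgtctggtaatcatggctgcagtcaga
Mrpl43: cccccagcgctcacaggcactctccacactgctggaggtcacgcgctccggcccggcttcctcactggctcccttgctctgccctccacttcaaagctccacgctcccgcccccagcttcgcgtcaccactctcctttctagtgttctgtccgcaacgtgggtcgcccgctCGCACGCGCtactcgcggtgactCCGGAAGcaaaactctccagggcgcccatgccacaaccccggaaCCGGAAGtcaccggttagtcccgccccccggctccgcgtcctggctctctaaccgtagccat
The Mrps6 window, 73.7% G and C, held none of these 5 letter strings. The Mrpl12 window held 1 NRF1 match, the Mrps22 window held 1 ETS match, and the Mrpl43 window held 2 ETS matches and 1 NRF1 match. The members without a window are Mrpl13, Mrpl15, Mrpl19, Mrpl38, Mrpl4, Mrpl54, Mrps28, Mrps34 and Mrps35.

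Counts are of unique molecular identifiers (UMIs), each tagging 1 captured RNA molecule at its 5' end, and they were not divided by gene length. Sums per mouse and state ran from 83381 UMIs (prePC of mouse 3, 10 cells) to 10709429 UMIs (DZ of mouse 3). Median UMIs per cell were 24018 in PC, 9225 in prePC, 4119 in preMem, 19103 in LZtoDZ, 7875 in DZ and 6258 in LZ cells. Summed marker lists set some states apart and overlapped between others. Plasma cell markers lay between 30340 and 49417 CPM (counts per 1000000 UMIs) in PC and at most 5553 CPM elsewhere. Light zone markers had 1082 to 1261 CPM in LZ and 1110 to 1160 CPM in preMem cells. Activation markers had 365 to 559 CPM in LZtoDZ, 125 to 160 CPM in LZ cells and 281 to 388 CPM in PC. Dark zone markers had 910 to 1011 CPM in DZ, 590 to 611 CPM in LZ and 460 to 640 CPM in LZtoDZ cells. Memory markers lay between 1322 and 1448 CPM in preMem and at most 59.3 CPM in LZ cells. The prePC sums also held 978 to 1235 CPM of memory markers and 14.8 to 442 CPM of myeloid markers, which were at most 12.8 CPM in DZ, LZ, LZtoDZ and preMem cells. In PC the myeloid markers lay between 6.49 and 24.5 CPM, overlapping prePC. T cell markers ran from 0 to 48.0 CPM in prePC and were at most 5.2 CPM in every other state. No cell barcode was shared between the 2 barcode series of the files.

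Summed over the 77 members, the level differed between states far more than between mice. LZtoDZ cells had summed levels of 9308, 9421 and 9706 CPM in mice 1, 2 and 3, after scaling of each sum by edgeR's trimmed mean of M values (TMM). PC followed at 8588 ± 120 CPM and DZ cells at 6919 ± 48.9 CPM (mean ± SD, n = 3 mice). LZ cells stood at 6528 ± 38.5 CPM and preMem cells lowest at 5103 ± 243 CPM. The sums of these 5 states did not overlap between neighbors in that order. The prePC sums of 6955, 7558 and 5409 CPM overlapped the range from preMem to DZ cells. As a share of all UMIs, without that scaling, the members took 1.05, 1.05 and 1.08% in LZtoDZ cells and 0.485, 0.496 and 0.616% in PC, against 0.743, 0.759 and 0.752% in LZ cells. PC thus stood above LZ cells by scaled level and below them by share, with 39.4, 37.6 and 29.7% of PC UMIs on immunoglobulin genes. The same held against DZ cells, whose shares were 0.804, 0.814 and 0.802%. Shares with immunoglobulin UMIs taken out of the total were not compared, so the order of PC and DZ cells rests on the scaling.

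**Figure D1:**
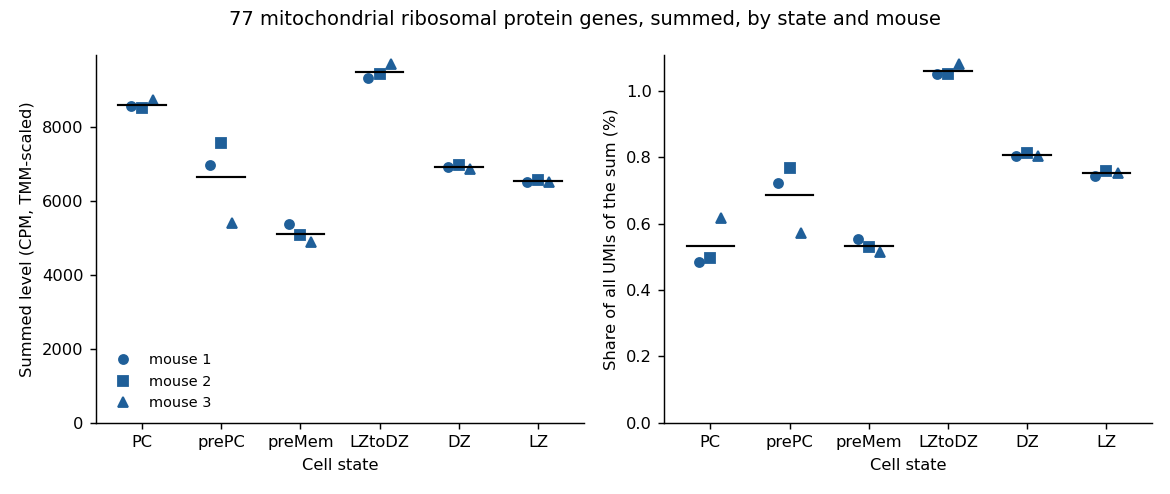
Summed level of the 77 members (left, CPM after TMM scaling) and their share of all UMIs (right, percent) by state, with 1 point per mouse and the mean as a bar. LZtoDZ is highest in both panels, while PC, at 8492 to 8723 CPM, lies second on the left and at 0.485 to 0.616% near the bottom on the right.

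Thinned to 2000 UMIs per cell, which left out 14 DZ, 20 LZ and 9 preMem cells, a cell showed on average 8.86 members in PC, 11.3 in prePC, 9.33 in preMem, 18.2 in LZtoDZ, 13.6 in DZ and 12.7 in LZ cells. Of the 77 members, 52 had their highest mean level in LZtoDZ cells, which was the highest state of 22.9% of all genes tested, and 18 in PC, the highest state of 24.0% of all genes tested. The lowest state was preMem for 58 members, against 18.3% of all genes tested. Set against the summed level of the 79 cytosolic ribosomal protein genes, the members stood at 3.86 ± 0.104 per 100 in PC, 2.64 ± 0.464 in prePC, 2.00 ± 0.0441 in preMem, 4.34 ± 0.119 in LZtoDZ, 3.75 ± 0.0636 in DZ and 3.52 ± 0.0928 in LZ cells. The cytosolic list itself summed to 255370 ± 6801 CPM in preMem and 185301 ± 3934 CPM in LZ cells, so both terms of that ratio differed between these states. Large-subunit members made up 68.0 ± 0.292% of the summed level in LZtoDZ, 65.1 ± 0.663% in preMem and 66.9 ± 0.267% in LZ cells.

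The comparison of LZtoDZ with LZ cells asks what accompanies the return of selected cells to the dark zone. Of the 77 members, 60 rose in LZtoDZ cells and 0 fell (edgeR's quasi-likelihood test, adjusted p under 0.05), where 22.5% of the 8473 genes tested were called higher and 24.3% lower. DESeq2 called 67 higher and 0 lower, against 25% and 21.7% of genes tested, and 64 members had an unadjusted p under 0.05 in edgeR. The median log2 fold change was 0.57 over the members and -0.08 over all genes tested. In each of mice 1, 2 and 3 the median member stood 0.50, 0.58 and 0.59 higher on the log2 scale, with 70, 75 and 77 members above 0. Every LZtoDZ sum lay above every LZ sum for 67 members, against 27.5% of genes tested, and below for 0, against 31.8%.

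The rise covered each structural group. Among large-subunit members, 25 of 30 with a bacterial homolog and 13 of 20 found only in mitochondria rose, and among small-subunit members 12 of 16 and 10 of 10. All 6 proteins around the peptide exit rose, as did 5 of 7 of the central protuberance and 2 of 4 of the L7/L12 stalk and its base.

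Mrps6 changed most: it had 47.2, 57.6 and 66.3 CPM in LZtoDZ cells, against 13.2, 20.5 and 17.0 CPM in LZ cells. Its log2 fold change was 1.76 ± 0.14 (SE, adjusted p = 1.5e-07), and all 3 LZtoDZ sums lay above all 3 LZ sums. Mrpl12 had 365, 316 and 340 CPM in LZtoDZ cells, against 131, 139 and 142 CPM in LZ cells, again without overlap, a log2 fold change of 1.31 ± 0.12 (adjusted p = 4.3e-07). Mrpl11, of the stalk base next to Mrpl12, had 94.3, 114 and 99.5 CPM in LZtoDZ cells against 72.4, 67.9 and 65.8 CPM in LZ cells, a log2 fold change of 0.59 ± 0.09 (adjusted p = 5.9e-05). Mrps28, of the small subunit, had 153, 156 and 129 CPM in LZtoDZ cells, against 64.7, 67.2 and 68.4 CPM in LZ cells (log2 fold change 1.11 ± 0.15). Mrps22 had 56.4, 50.1 and 52.8 CPM in LZtoDZ cells, against 25.8, 22.6 and 25.1 CPM in LZ cells (log2 fold change 1.11 ± 0.13). Mrpl19, homologous to bacterial L19, had 89.7, 69.5 and 84.1 CPM in LZtoDZ cells, against 37.2, 38.9 and 36.8 CPM in LZ cells (log2 fold change 1.1 ± 0.10). In none of these did a mouse of one state reach the range of the other.

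Mrpl45, which tethers the ribosome to the inner membrane beside the peptide exit, had 79.4, 74.0 and 87.2 CPM in LZtoDZ cells, against 40.2, 46.2 and 45.2 CPM in LZ cells (log2 fold change 0.87 ± 0.08, adjusted p = 1e-06). Mrps30 had 82.8, 89.7 and 81.0 CPM in LZtoDZ cells, against 54.1, 47.9 and 43.0 CPM in LZ cells (log2 fold change 0.83 ± 0.08). Mrps12, the small-subunit protein that lines the decoding site, had 81.7, 87.5 and 99.5 CPM in LZtoDZ cells, against 59.3, 56.9 and 62.3 CPM in LZ cells (log2 fold change 0.60 ± 0.10). Other members did not pass. Mrpl43 had a log2 fold change of -0.01 (adjusted p = 0.96), the only value below 0 among the members. Mrps21, the member with the most UMIs (15755), had 277, 277 and 276 CPM in LZtoDZ cells against 257, 258 and 260 CPM in LZ cells, which did not overlap but did not pass either (log2 fold change 0.10 ± 0.14, adjusted p = 0.59). Mrpl53, with the fewest UMIs (291), had 2.30, 7.48 and 6.14 CPM in LZtoDZ cells against 5.46, 4.75 and 4.37 CPM in LZ cells, too few to show a difference of this size.

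**Figure D2:**
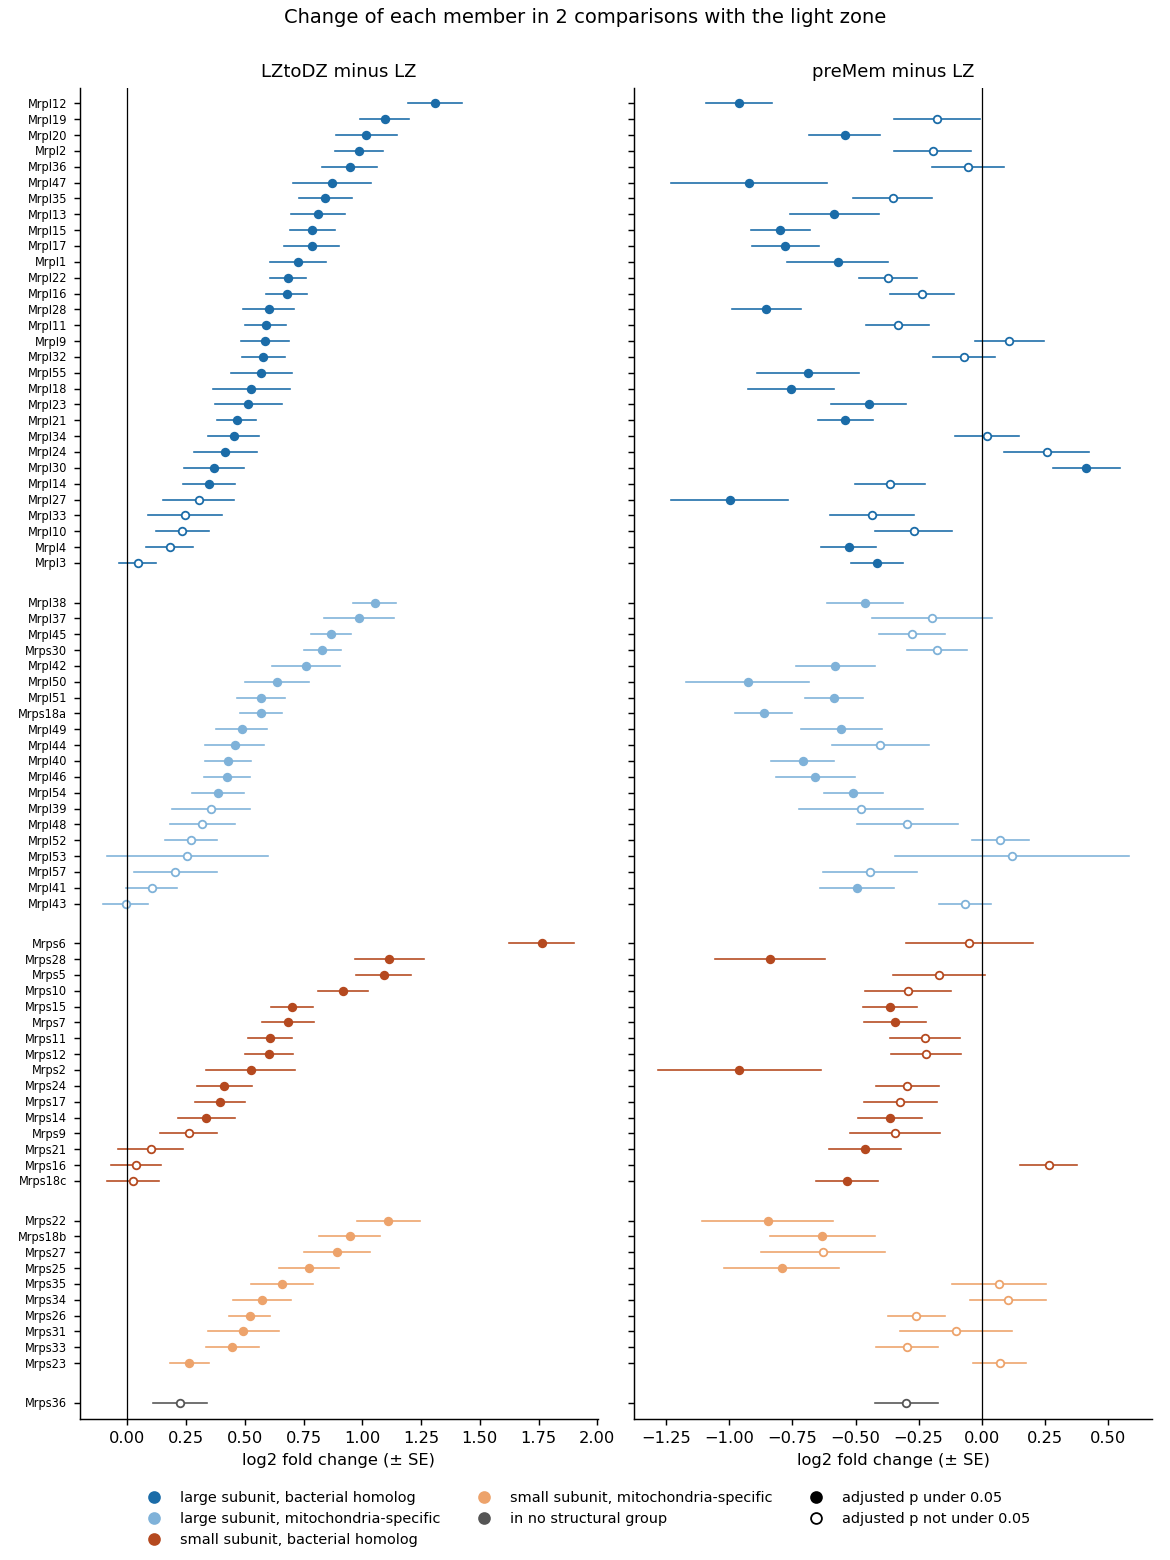
Log2 fold change of each member (± SE) in LZtoDZ minus LZ (left) and preMem minus LZ (right), grouped by structural class, with filled points where the adjusted p was under 0.05. On the left 60 filled points lie above 0, led by Mrps6 at 1.76, and on the right 35 filled points lie below 0 and 1, Mrpl30, above. Both panels use the same LZ sums.

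The LZtoDZ state is part of a range of the authors' activation score, and the sources used here do not list the genes of that score, so members may be among them. The lowest score of an LZtoDZ cell was 0.581, and 3 other cells lay at or above it. The 32 LZtoDZ cells within 0.02 above that boundary gave the members 0.941, 0.970 and 0.984% of UMIs in mice 1, 2 and 3, and the 21 LZ cells within 0.02 below it gave 0.920, 0.985 and 0.991%. These shares overlap on either side of the boundary, while the LZtoDZ cells further above it had 1.07, 1.06 and 1.09%. Among LZ cells, the 25% with the highest activation score in each mouse had 0.844, 0.880 and 0.854% of UMIs on the members, and the 25% with the lowest score 0.610, 0.599 and 0.608%. Cell cycle and depth moved with the score: 19.5, 18.2 and 22.4% of the highest 25% were called G1, against 91.7, 89.8 and 91.8% of the lowest 25%, and the median UMIs per cell were 9131, 9730 and 9580 against 4715, 4705 and 4552. LZ cells with a UMI of Myc had 0.776, 0.828 and 0.786% of UMIs on the members, against 0.734, 0.743 and 0.743% in those without. The cells with a Myc UMI also had more UMIs, at medians of 7383, 8214 and 7918 against 5912, 6323 and 5910, and 43.6, 32.4 and 42.2% of them were called G1, against 61.0, 54.4 and 61.3%. The part of depth and phase in that difference was not tested. With S phase cells alone, of which LZtoDZ held 106, the count of members higher in LZtoDZ than in LZ was 61 with 0 lower, where 18.1% of genes tested were called higher and 16.1% lower, and the median was 0.49 over the members and -0.05 over all genes tested.

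Other nuclear genes of mitochondrial translation were set beside the members, in the comparison where 22.5% of genes tested were called higher and 24.3% lower. All 6 mitochondrial ribosomal proteins without an Mrp symbol rose in LZtoDZ cells, with a median log2 fold change of 0.59. Ptcd3, a pentatricopeptide protein of the small subunit, averaged 32.7 ± 2.35 CPM in LZtoDZ cells and 13.3 ± 2.44 CPM in LZ cells (log2 fold change 1.26), and Gadd45gip1, of the large subunit near the peptide exit, 188 ± 17.9 and 106 ± 6.21 CPM (0.81). Of 13 translation factors 6 rose and the others did not pass (median 0.40). Among the 6 were the elongation factors Tufm at 0.78 and Gfm1 at 0.82 and the exchange factor Tsfm at 0.91. Of 17 mitochondrial aminoacyl-tRNA synthetases and their kin 8 rose and 3 fell (median 0.38), with Yars2, which charges tyrosine tRNA, at 1.34 and Lars2, which charges leucine tRNA, at -0.62. Of 22 assembly factors 5 rose, with the GTPases Mtg1 at 1.42 and Noa1 at 1.1, and the others did not pass (median 0.18). That count is near the share of all genes tested. Of 7 genes of mitochondrial transcription 4 rose and the others did not pass (median 0.44), including Tfb2m, which opens the promoter for the mitochondrial polymerase, at 0.90 and the DNA-packaging factor Tfam at 0.44.

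The mRNAs translated by these ribosomes went the other way in LZtoDZ cells. Of the 13 mitochondrial mRNAs, 8 fell and the others did not pass, and the median was -0.38 on the log2 scale. Over all genes tested 22.5% were called higher and 24.3% lower. mt-Co1, the largest cytochrome oxidase subunit, averaged 2030 ± 49.3 CPM in LZtoDZ cells and 3001 ± 50.9 CPM in LZ cells (-0.56, adjusted p = 0.0001). Summed over the 13 mRNAs the level was 12176 ± 362 CPM in LZtoDZ cells and 16053 ± 313 CPM in LZ cells. The cytosolic ribosomal proteins rose for 52 and fell for 2 of 78 genes tested (median 0.29). Leaving out any 1 mouse left 51 to 60 members higher and 0 lower.

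In preMem cells the members were lower. Of 77, 35 fell and 1 rose relative to LZ cells, where 14.7% of genes tested were called lower and 16.6% higher, and the median was -0.36 over the members and 0.03 over all genes tested. The median member stood at -0.26, -0.38 and -0.39 in mice 1, 2 and 3, with 13, 12 and 8 members above 0. Every preMem sum lay below every LZ sum for 52 members, against 24.8% of genes tested, and above for 3, against 24.5%. By group, 15 of 30 and 10 of 20 large-subunit members fell (bacterial homolog and mitochondria-specific), and 7 of 16 and 3 of 10 small-subunit members. Of the 7 central protuberance proteins 6 fell, with a median of -0.69. Without mouse 1, 2 or 3 the count of members that fell was 23, 14 or 21, and scaling to total UMIs without TMM shifted the median of all genes by -0.14, to -0.10, with 48 members and 19.4% of genes tested lower.

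Mrpl12 had 67.9, 73.3 and 70.0 CPM in preMem cells, against 131, 139 and 142 CPM in LZ cells, a log2 fold change of -0.96 ± 0.13 (adjusted p = 4.7e-05). Mrps18a had 70.1, 51.6 and 53.2 CPM in preMem cells, against 101, 105 and 105 CPM in LZ cells (-0.86 ± 0.11, adjusted p = 3.3e-05). Mrpl28, homologous to bacterial L28, had 63.7, 61.1 and 51.8 CPM in preMem cells, against 103, 105 and 109 CPM in LZ cells (-0.85 ± 0.14). For these 3 members the mice of the 2 states were far apart. Mrpl27, which in bacteria reaches toward the peptidyl transferase center, was spread more widely, with 59.4, 19.0 and 42.0 CPM in preMem cells against 70.7, 80.8 and 74.0 CPM in LZ cells. Its log2 fold change of -1.0 ± 0.23 (adjusted p = 0.0039) rested on mouse 2, without which it was -0.56 (adjusted p = 0.065). Mrpl50, of the large subunit, had 21.2, 12.2 and 18.2 CPM in preMem cells, against 33.0, 29.7 and 32.8 CPM in LZ cells (-0.93 ± 0.24, and -0.75 with adjusted p = 0.064 without mouse 2).

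The 1 member that rose in preMem cells was Mrpl30, homologous to bacterial L30, with 221, 167 and 154 CPM in preMem cells against 132, 138 and 132 CPM in LZ cells (0.42 ± 0.13, adjusted p = 0.025). Its log2 fold change was 0.25 (adjusted p = 0.27) without mouse 1 and 0.49 (adjusted p = 0.073) without mouse 2. Of the 396 preMem cells 370 were called G1, against 1235 of 2213 LZ cells. Comparing only G1 cells, 28 members fell relative to LZ cells, against 9.65% of genes tested, and the others did not pass, with a median of -0.35 over the members and 0.01 over all genes tested. Neither Mrpl28 (-0.37, adjusted p = 0.052) nor Mrpl30 (0.35, adjusted p = 0.051) passed there.

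The preMem state too is bounded by a score. The lowest memory score of a preMem cell was 0.780, with 35 other cells at or above it. The 40 preMem cells within 0.02 above the boundary had 0.652, 0.615 and 0.537% of UMIs on the members, and the 42 LZ cells within 0.02 below it 0.552, 0.615 and 0.591%, which overlap. In the 25% of LZ cells with the highest memory score the share was 0.618, 0.629 and 0.627%, and in the 25% with the lowest 0.830, 0.847 and 0.835%, with 94.7, 92.6 and 92.7% of cells called G1 against 6.02, 5.68 and 7.35%.

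The cytosolic ribosomal proteins and the mitochondrial mRNAs had more members called higher than lower in preMem cells, with positive medians. Of 78 cytosolic ribosomal proteins 66 rose and 2 fell (median 0.44), and of 13 mitochondrial mRNAs 7 rose and the others did not pass (median 0.31), with mt-Co1 at 4577 ± 546 CPM in preMem and 3001 ± 50.9 CPM in LZ cells. Of the 6 mitochondrial ribosomal proteins without an Mrp symbol (median -0.21) 1 fell, Chchd1 of the small subunit (-0.39). Of the 13 translation factors (median -0.22) Tufm fell (-0.70), while the membrane insertase Oxa1l rose (0.50). Of the 22 assembly factors (median 0.03) Noa1 (-0.99) and Mpv17l2 (-0.67) fell. Over all genes tested 16.6% were called higher and 14.7% lower in preMem cells.

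In PC members were called in both directions, in neither more often than genes tested at large. Relative to the average of DZ, LZ and LZtoDZ cells in each mouse, called GC here, 18 members rose and 17 fell, where 25.8% of genes tested were called higher and 27.2% lower. The few LZtoDZ cells count in that average as much as DZ or LZ cells, so a call against GC need not hold against either zone. The median was 0.04 over the members and -0.09 over all genes tested, and in mice 1, 2 and 3 the median member stood at -0.01, 0.01 and 0.08. The split depended on the scaling. Scaled to total UMIs without TMM, 3 members rose and 66 fell, against 11.7 and 70.2% of genes tested, with the median of all genes at -1.0. With immunoglobulin genes left out and no TMM, 16 rose and 31 fell, against 20.8 and 45% of genes tested, with that median at -0.37. The members' median less that of all genes was 0.13 with TMM, and 0.14 and 0.13 under those 2 scalings. Without mouse 1, 2 or 3, 8, 12 or 10 members fell. Of the PC 117 of 137 cells came from the second barcode series, which holds 122 cells in all. Pooled, these 117 PC had 0.489% of UMIs on the members and 39.4% on immunoglobulin genes, and the 20 PC of the first series, which holds most cells of the other states, had 0.777 and 11.4%. The part of the series in the PC comparison was not tested.

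Mrpl57, a small large-subunit protein found only in mitochondria, had 443, 467 and 380 CPM in PC, against 159, 155 and 161 CPM in GC, a log2 fold change of 1.44 ± 0.14 (adjusted p = 2e-07). Mrpl37, also found only in mitochondria, had 166, 99.8 and 104 CPM in PC, against 46.9, 46.4 and 48.0 CPM in GC (1.43 ± 0.14). Mrps12 had 185, 150 and 183 CPM in PC, against 67.3, 69.1 and 76.8 CPM in GC (1.29 ± 0.09). All PC values of these members lay above all GC values, as held for 25 of 77 members and 27.1% of genes tested, and all 3 stayed higher without TMM. Mrps28 had 187, 173 and 175 CPM in PC, against 91.3, 94.9 and 86.5 CPM in GC (1.09 ± 0.13), but 0.19 (adjusted p = 0.27) without TMM. Mrpl13, homologous to bacterial L13, had 110, 137 and 146 CPM in PC, against 75.8, 71.4 and 79.1 CPM in GC (0.84 ± 0.12), and its direction turned to -0.057 without TMM.

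At the other end, Mrps6 had 7.15, 15.4 and 9.13 CPM in PC, against 24.6, 31.5 and 33.3 CPM in GC (-1.18 ± 0.25, adjusted p = 0.00099), and -1.13 (adjusted p = 0.093) among G1 cells alone. In DZ and LZ cells Mrps6 averaged 15.4 and 16.9 CPM. Mrpl3, homologous to bacterial L3, had 40.1, 38.4 and 38.3 CPM in PC, against 70.7, 74.3 and 72.1 CPM in GC (-0.90 ± 0.11). Mrpl41, found only in mitochondria, had 40.1, 33.3 and 43.8 CPM in PC, against 73.3, 64.9 and 73.7 CPM in GC (-0.86 ± 0.15). In each of these all PC values lay below all GC values, as held for 21 of 77 members and 37% of genes tested. Mrpl49 had 40.1, 42.2 and 40.2 CPM in PC, against 71.6, 74.3 and 76.4 CPM in GC (-0.85 ± 0.15). Mrpl23, of the peptide exit, had 104, 127 and 120 CPM in PC, against 203, 190 and 200 CPM in GC (-0.73 ± 0.13). Mrpl12 had 123, 129 and 161 CPM in PC, against 210, 196 and 205 CPM in GC (-0.43 ± 0.10, adjusted p = 0.0027). Its mean of 138 CPM in PC was not below those of DZ (133 CPM) and LZ cells (137 CPM), so the fall holds only against an average that includes LZtoDZ cells. Other members called lower in PC were also close to both zones. Mean CPM in PC, DZ and LZ cells were 50.1, 52.6 and 51.3 for Mrpl2 and 45.5, 45.7 and 44.7 for Mrpl38. For Mrpl15 they were 101, 103 and 107. Other falls held against both zones by their means, such as that of Mrpl49, at 40.8, 69.3 and 64.1 CPM. PC against DZ and LZ cells alone was not tested. Of the cytosolic ribosomal proteins 35 rose and 8 fell in PC, and of the mitochondrial mRNAs 6 rose and 2 fell. Over all genes tested 25.8% were called higher there and 27.2% lower.

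**Figure D3:**
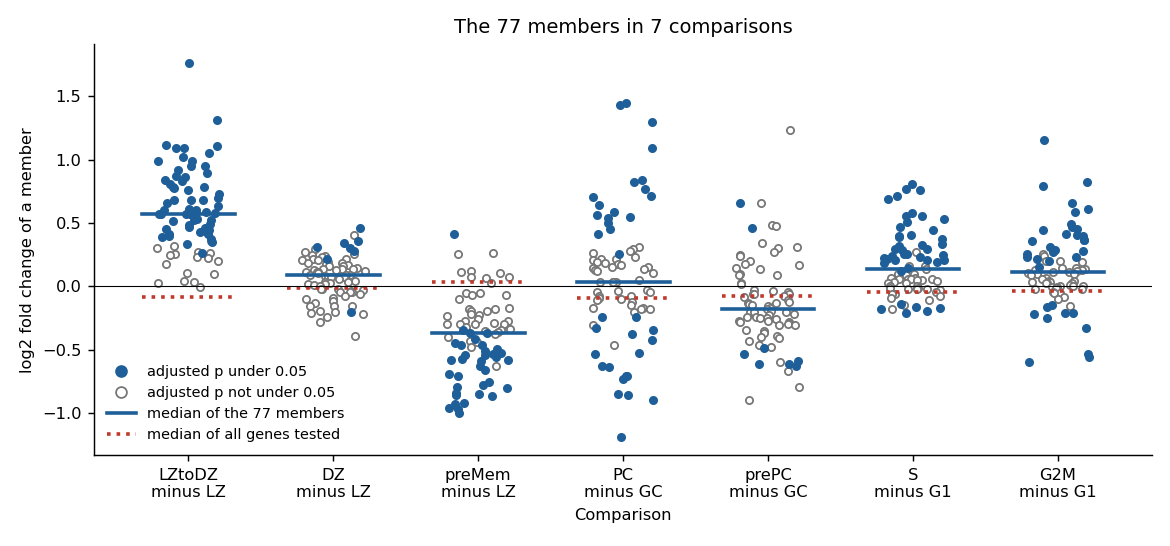
Log2 fold change of each of the 77 members (1 point each, filled where the adjusted p was under 0.05) in 7 comparisons, with the median of the members (solid bar) and of all genes tested (dotted bar). The medians of the members are 0.57 in LZtoDZ minus LZ and -0.36 in preMem minus LZ, and in PC minus GC the filled points lie on both sides of 0.

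PC were split further by the cell cycle call, a comparison chosen after seeing the data. The members took 0.708, 0.739 and 0.792% of UMIs in cycling PC (S or G2/M, 46 cells in all) and 0.325, 0.352 and 0.451% in G1 PC (91 cells), with immunoglobulin genes at 21.5, 20.0 and 18.3% in cycling and 52.2, 48.0 and 40.3% in G1 PC. With TMM, 8 of 70 members tested rose in cycling PC and 1 fell, where 15.8% of 3863 genes tested were called higher and 13.7% lower, and the median was 0.32 over the members and 0.02 over all genes tested. Mrpl33, homologous to bacterial L33, had 117, 142 and 133 CPM in cycling PC, against 62.7, 58.6 and 74.8 CPM in G1 PC (1.02 ± 0.15, adjusted p = 0.0038). Mrpl12 had 94.2, 99.8 and 135 CPM in cycling PC, against 50.6, 60.2 and 52.6 CPM in G1 PC (0.97 ± 0.18). Mrpl57 went down, with 235, 228 and 184 CPM in cycling PC against 320, 356 and 316 CPM in G1 PC (-0.62 ± 0.11). No mouse of cycling PC overlapped the G1 PC range in these 3 members, and such separation was found upward for 28 members and 25.4% of genes tested, and downward for 3 members and 21.2%. The scaling decided the counts: without TMM 62 rose and 0 fell, against 56.2 and 3.31% of genes tested (Mrpl57 at 0.15, adjusted p = 0.44), DESeq2 called 1 higher and 0 lower, against 8.36 and 6.78%, and leaving out mouse 1, 2 or 3 left 3, 3 or 0 higher, with Mrpl33 at 1.09 (adjusted p = 0.059) and Mrpl12 at 0.79 (adjusted p = 0.071) without mouse 3.

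prePC sums rest on 17, 22 and 10 cells, so they show only large differences. Relative to GC, 2 members rose and 6 fell, where 10.4% of genes tested were called higher and 7.52% lower, with a median of -0.18 over the members and -0.07 over all genes tested. Mrpl52, a large-subunit protein found only in mitochondria, had 343, 379 and 397 CPM in prePC, against 238, 239 and 237 CPM in GC (0.66 ± 0.10, adjusted p = 0.00013). Mrps16, homologous to bacterial S16, had 148, 208 and 181 CPM in prePC, against 133, 129 and 132 CPM in GC (0.46 ± 0.12), but 0.24 (adjusted p = 0.60) without mouse 2 and 0.46 (adjusted p = 0.075) without mouse 3. Among those that fell, Mrps18c had 83.4, 98.4 and 102 CPM in prePC against 136, 152 and 145 CPM in GC (-0.61 ± 0.15), and Mrpl12 had 97.2, 142 and 113 CPM in prePC against 210, 196 and 205 CPM in GC (-0.61 ± 0.13). The GC values of Mrpl12 include the high LZtoDZ cells. Its means in DZ and LZ cells were 133 and 137 CPM, which prePC of mouse 2 exceeded. Without mouse 1, Mrps18c was at -0.57 (adjusted p = 0.098) and Mrpl12 at -0.45 (adjusted p = 0.15), and Mrps18c was at -0.64 (adjusted p = 0.066) without mouse 2. The values in prePC lay on 1 side of the GC values in all mice for these 4 members, as for 5 members upward and 23 downward, against 15.2 and 26.4% of genes tested. Of the 49 prePC 40 belonged to 1 cluster of the authors, cluster 4, and with these alone 1 member rose and 18 fell, against 10.2 and 13.2% of genes tested, with the median of all genes at -0.20 and that of the members at -0.39. Without mouse 1, 2 or 3, 0, 4 or 2 members fell, and without cells holding at least 2 UMIs of other cell types' markers 1 rose and 2 fell, against 7.71 and 5.49% of genes tested.

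DZ and LZ cells, the deepest sums, differed in few of these genes. In DZ cells 7 members rose and 1 fell, where 8.19% of genes tested were called higher and 11.2% lower, and the median was 0.09 over the members and -0.02 over all genes tested. Mrps18c had 179, 174 and 174 CPM in DZ cells, against 121, 132 and 130 CPM in LZ cells (0.46 ± 0.10, adjusted p = 0.0045), and the adjusted p was 0.060 without mouse 1. Mrps10, homologous to bacterial S10, had 51.1, 51.5 and 46.8 CPM in DZ cells, against 41.7, 39.6 and 37.4 CPM in LZ cells (0.34 ± 0.08), with an adjusted p of 0.094 without mouse 2 and 0.089 without mouse 3. Both zones were separate in all mice for these members, as for 32 members upward and 12 downward, against 21.8 and 24.1% of genes tested. Mrpl3 was the member that fell, with 65.5, 65.6 and 64.7 CPM in DZ cells against 74.2, 78.1 and 72.9 CPM in LZ cells (-0.20 ± 0.06, adjusted p = 0.024). The others that rose were Mrps18a (0.36), Mrpl51 (0.31), Mrps22 (0.30), Mrpl9 (0.28) and Mrps30 (0.21). The counts moved with most settings: averaged within phases, 24 rose and 6 fell, against 14.2 and 12% of genes tested, without immunoglobulin genes 16 rose and 7 fell, against 14.3 and 19%, and without mouse 1, 2 or 3, 4, 2 or 1 rose and 0 fell.

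Vertebrate mitochondria carry 3 homologs of bacterial ribosomal protein S18, and each is described in turn. The product of Mrps18c takes the place of bacterial S18 in the small subunit, that of Mrps18b sits elsewhere in the small subunit, and that of Mrps18a in the large subunit. Mrps18b had 114, 106 and 109 CPM in LZtoDZ cells, against 53.8, 58.6 and 56.9 CPM in LZ cells (0.95 ± 0.13, adjusted p = 2.7e-05), and 52.0, 56.0 and 56.4 CPM in DZ cells, overlapping LZ cells (-0.04, adjusted p = 0.85). Mrps18a was higher in both, at 154, 165 and 144 CPM in LZtoDZ cells and 133, 136 and 131 CPM in DZ cells, against 101, 105 and 105 CPM in LZ cells (0.57 ± 0.09 and 0.36 ± 0.08). Mrps18c was at 109, 150 and 130 CPM in LZtoDZ cells (0.02 ± 0.11, adjusted p = 0.88), overlapping LZ cells, and rose in DZ cells as given above. All 3 fell in preMem cells, by log2 fold changes of -0.86 for Mrps18a, -0.63 for Mrps18b and -0.53 for Mrps18c, but Mrps18b was at -0.57 (adjusted p = 0.16) without mouse 2 and -0.42 (adjusted p = 0.22) without mouse 3, and Mrps18c at -0.40 (adjusted p = 0.077) without mouse 2. In PC relative to GC, Mrps18a fell (-0.71 ± 0.09, but -0.23 with adjusted p = 0.29 among G1 cells), Mrps18b rose (0.64 ± 0.14, but -0.25 without TMM) and Mrps18c did not pass (-0.14, adjusted p = 0.24). Whether the changes of the 3 genes differed from each other was not tested.

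**Figure D4:**
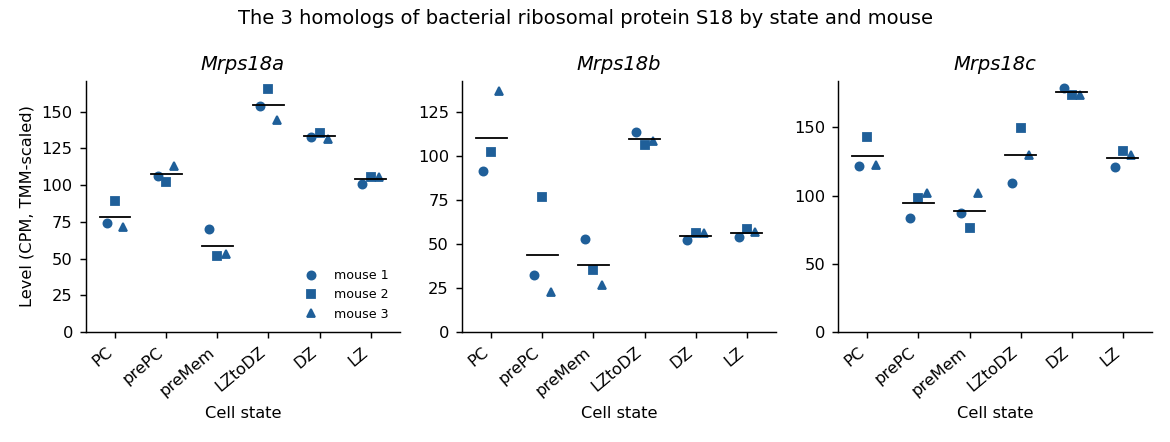
Level (CPM after TMM scaling) of Mrps18a, Mrps18b and Mrps18c by state, 1 point per mouse with the mean as a bar. In LZtoDZ cells Mrps18b is at 106 to 114 CPM, against 53.8 to 58.6 CPM in LZ cells, while Mrps18c is highest in DZ cells at 174 to 179 CPM.

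The cell cycle comparisons average DZ and LZ cells, on a scaling of their own. In S phase 36 members rose and 6 fell relative to G1, where 23.8% of 9163 genes tested were called higher and 22.9% lower, with a median of 0.14 over the members and -0.04 over all genes tested. In G2/M 26 rose and 10 fell, where 22.4% were called higher and 22.2% lower, with medians of 0.11 and -0.04. In mice 1, 2 and 3 the median member stood at 0.12, 0.13 and 0.17 in S and at 0.13, 0.08 and 0.08 in G2/M. Summed, the members had 7592 ± 96.0 CPM in G1, 8528 ± 33.4 CPM in S and 8163 ± 48.0 CPM in G2/M among DZ cells, and 6980 ± 33.2 CPM in G1, 7859 ± 77.4 CPM in S and 7971 ± 77.3 CPM in G2/M among LZ cells (mean ± SD, n = 3 mice). The cytosolic ribosomal proteins rose for 21 and fell for 25 of 79 in S, and rose for 8 and fell for 56 in G2/M. Phases were called by the authors from the same transcriptomes.

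Mrps18a had 91.1, 94.3 and 89.2 CPM in G1, 135, 127 and 129 CPM in S and 198, 205 and 208 CPM in G2/M in mice 1, 2 and 3. It rose in both S (0.50 ± 0.05) and G2/M (1.15 ± 0.05, adjusted p = 1.8e-14), with no overlap between phases. Mrpl51, of the large subunit, had 207, 188 and 201 CPM in G2/M, against 116, 114 and 107 CPM in G1 (0.83 ± 0.05, adjusted p = 8.7e-12). Mrps22 had 25.2, 20.3 and 23.1 CPM in G1, 40.1, 34.6 and 35.4 CPM in S and 41.5, 35.7 and 40.4 CPM in G2/M (0.69 ± 0.09 in S, 0.79 ± 0.10 in G2/M). S was not tested against G2/M. Mrpl18, homologous to bacterial L18 in the central protuberance, had 209, 204 and 198 CPM in G1, 346, 338 and 350.5 CPM in S and 315, 311 and 306 CPM in G2/M (0.76 ± 0.04 in S, 0.61 ± 0.04 in G2/M). Mrpl14, which faces the small subunit, had 75.5, 74.2 and 71.2 CPM in G1, 116, 129 and 127 CPM in S (0.76 ± 0.06) and 99.7, 86.9 and 97.0 CPM in G2/M. Mrps6 had 11.4, 16.8 and 12.9 CPM in G1, 19.7, 25.2 and 25.9 CPM in S (0.81 ± 0.13) and 14.7, 20.9 and 20.6 CPM in G2/M, which overlaps both. Mrpl28 had 91.1, 92.9 and 88.5 CPM in G1, 141, 146 and 157 CPM in S (0.71 ± 0.06) and 142, 147 and 142 CPM in G2/M, which overlaps S. S and G1 did not overlap in any of these members, as for 40 members upward and 9 downward, against 26.3 and 27.3% of genes tested.

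A smaller set fell in the later phases. Mrpl19 had 34.6, 32.8 and 30.4 CPM in G2/M, against 51.1, 45.6 and 48.2 CPM in G1 (-0.59 ± 0.11, adjusted p = 9e-05). Mrpl38, of the central protuberance, had 40.6, 43.2 and 41.3 CPM in G2/M, against 61.9, 59.4 and 63.8 CPM in G1 (-0.56 ± 0.08). Mrps18b had 44.3, 48.9 and 57.1 CPM in G2/M, against 69.2, 79.9 and 70.8 CPM in G1 (-0.54 ± 0.08). In all 3 every G2/M value lay below every G1 value, as for 10 members and 25.9% of genes tested, while 33 members and 24.9% of genes lay wholly above. Mrps27, of the small subunit, fell by 0.33 and Mrps34, also of the small subunit, by 0.25 on the log2 scale. In S the largest falls were those of Mrpl38 (-0.21), Mrpl43 (-0.19), Mrpl9 (-0.18), Mrpl52 (-0.17) and Mrpl54 (-0.16). Of these, Mrps27 did not pass without mouse 1 or 2, Mrps34, Mrpl38 in S and Mrpl43 without mouse 3, or Mrpl9 without mouse 1 or 2.

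**Figure D5:**
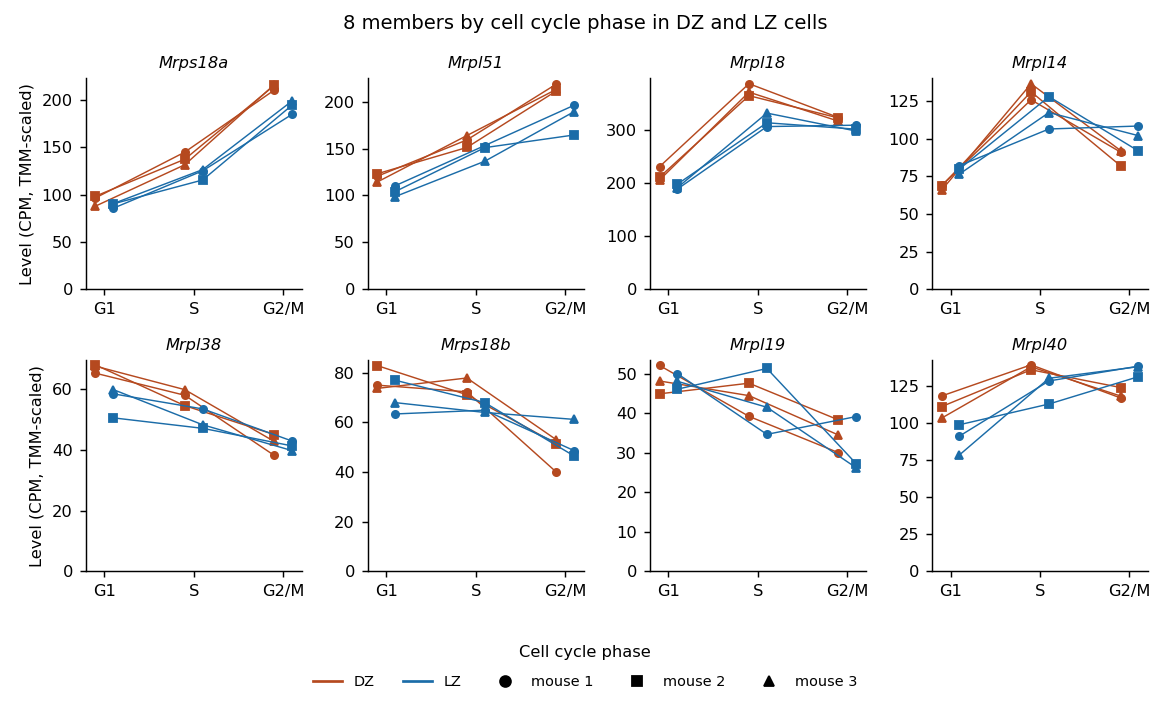
Level (CPM after TMM scaling) of 8 members by cell cycle phase in DZ and LZ cells, 1 line per mouse and zone. Mrps18a and Mrpl51 climb to G2/M, Mrpl18 and Mrpl14 have their highest mean in S in DZ cells, Mrpl38, Mrps18b and Mrpl19 have averages over the zones that are lower in G2/M than in G1, and Mrpl40 has its higher G2/M level in LZ cells, at 131 to 138 CPM against 78.4 to 98.8 CPM in G1.

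The phase effects were also compared between the zones. In S, 26 members rose and 3 fell in DZ cells, where 20.2% of genes tested were called higher and 15.2% lower, and 28 rose and 3 fell in LZ cells, where 16.9 and 14.4% were called. In G2/M, 19 rose and 8 fell in DZ cells, against 19.7 and 16.5% of genes tested, and 23 rose and 5 fell in LZ cells, against 16.3 and 14.7%. For S against G1 the difference between DZ and LZ passed for 0 members (edgeR, with 0.742% of genes tested called higher and 0.0982% lower), 4 had an unadjusted p under 0.05, and DESeq2 called 0 with 74 members left without an adjusted p. For G2/M against G1 it passed for 1 member, Mrpl40 of the central protuberance, with 2.06% of genes tested called higher and 0.644% lower, while 15 members had an unadjusted p under 0.05 and DESeq2 called 1, with 14 left without an adjusted p. Mrpl40 had 138, 131 and 138 CPM in G2/M against 91.1, 98.8 and 78.4 CPM in G1 among LZ cells (0.61 ± 0.09), and 117, 124 and 118 CPM in G2/M against 118, 111 and 103 CPM in G1 among DZ cells (0.12 ± 0.08). The difference of these effects, DZ less LZ, was -0.49 ± 0.12 (adjusted p = 0.030). It was -0.45 (adjusted p = 0.21) without mouse 1 and -0.47 (adjusted p = 0.19) without mouse 3. Of the cytosolic ribosomal proteins, 60 of 79 passed with a higher G2/M effect in DZ than in LZ cells and 1 with a lower one.

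The median member varied less between mice than the median gene. The median coefficient of variation over the 3 mice was 10.9% for the members in PC, 31.2% in prePC, 14.9% in preMem, 9.14% in LZtoDZ, 3.31% in DZ and 4.54% in LZ cells. For all genes tested it was 22.2, 46.4, 20.9, 16.4, 5.70 and 7.32% in the same states. The widest spread among members in LZ cells was that of Mrps6 at 21.9%, and in preMem cells that of Mrpl27 at 50.5%. Members differ in level from the median gene, and what level adds to this difference was not tested. Reads of 4 members could be shared with 6 annotated pseudogenes, Mrpl23-ps1, Mrpl27-ps, Mrpl48-ps, Mrps36-ps1, Mrps36-ps2 and Mrps36-ps3.

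Promoter windows of the members were searched on both strands for short motifs, and a match is a description of letters only. Only exact matches count, so a window without a match may still hold a variant of the site. The ETS motif CCGGAAG was in 33.8% of the 74 member windows, 21.4% of the 8160 windows of genes tested and 8.86% of all 32851 windows. GCGCNTGCG, from the site of NRF1, was in 24.3% of member windows, 15.6% of those of genes tested and 6.31% of all. AAGATGGCG, from the site of YY1, was in 10.8% of member windows, 3.74% of those of genes tested and 1.40% of all, and ACTACAATT, from the site of ZFP143, in 0, 0.833 and 0.393%. None of these strings contains another. The E-box CACGTG, which Myc can bind, was in 9.46% of member windows, 10.7% of those of genes tested and 7.15% of all. Windows of the same gene were counted separately, and overlapping windows of Mrpl2 each held the E-box. TATAAA was in 6.76, 6.29 and 13.6% and CCAAT in 40.5, 38.6 and 37.4%.

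Of the 52 members with a window that rose in LZtoDZ cells, 14 had the ETS motif, as had 11 of the 16 that did not pass. The NRF1 core was in 12 of the 52 and 6 of the 16, and the YY1 core in 8 of the 52 and 0 of the 16. The E-box was in 4 of the 52 and 1 of the 16. These are counts, with no test.

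A protein-coding gene on the opposite strand started within 1000 bases of the start of 33 of the 77 members (42.9%), against 19.9% of 7897 genes tested that could be placed, counting pairs whose 5' ends overlap. Mrps11, homologous to bacterial S11, and Mrpl46, of the central protuberance, are members that start 412 bases apart and overlap by the GENCODE positions. Their RefSeq windows are chr7:78782881-78783180 on the plus strand for Mrps11 and chr7:78783040-78783339 on the minus strand for Mrpl46. These put the starts nearer each other and the genes without overlap. In LZtoDZ relative to LZ cells both members rose (0.61 and 0.43). Mrpl49 starts 59 bases from Fau, which encodes the cytosolic small-subunit protein S30. There Mrpl49 rose (0.49) and Fau fell (-0.63). Mrpl51 starts 100 bases from Ncapd2, a condensin subunit, and both rose there (0.57 and 0.34). Mrpl32 starts 75 bases from Psma2, a proteasome subunit, and both rose (0.58 and 0.48). Mrps12 starts 172 bases from Sars2, which charges mitochondrial serine tRNA: Mrps12 rose (0.60) and Sars2 did not pass (-0.36, adjusted p = 0.13).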

How the data were processed

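The authors deposited raw UMI counts per gene and cell in 1 matrix of 6000 cells, and a table of each cell's mouse, state, cluster, phase and signature scores. Counts per cell summed to the authors' totals in 6000 cells. The upstream tools were Cell Ranger and Seurat, with mm10 and GRCm38 as builds, per the submitters' processing notes. The sources used here do not state how cells or doublets were filtered. The scores per cell were computed by the authors from genes that are likewise not stated, and states and phases come from the same transcriptomes that are tested, so no state or phase is independent of the members' own counts. No doublet caller was run, and cells were neither filtered nor clustered again.

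Counts were summed per mouse and state (18 sums, 8473 genes, at least 10 cells each) or per mouse, zone and phase (18 sums, 9163 genes) and fitted with edgeR 4.0.16 in R 4.3.3 (TMM, filterByExpr, glmQLFit and glmQLFTest), with the mouse as a block, since sums of 1 number come from 1 animal, and Benjamini-Hochberg adjustment over all genes tested at 0.05. Deviations from the state means correlated at a median of 0.0394 within mice (45 pairs) and -0.0195 between mice (90 pairs). Because deviations cancel over the 3 mice of a state, the second value is tied to the first. CPM of the state, phase and PC fits are on different scalings. GC values in CPM are arithmetic means of DZ, LZ and LZtoDZ, in which a high LZtoDZ level weighs more. Log2 fold changes against GC average these states on the log scale, so they can be smaller than the CPM values imply. Errors are SD over 3 mice, or SE of a log2 fold change. That SE was worked back from the test, as the absolute log2 fold change over the square root of the quasi-likelihood F. It is therefore approximate, above all for changes near 0. Per-mouse log2 ratios add 1 CPM. The fits were also run on simulated counts, with equal dispersion for all genes and no mouse or state differences beyond the changes put in. The data differ in this, so those runs do not measure how the fits do here. Alternatives were DESeq2 1.42.0, no filter, no block, left-out mice, other scalings and subsets of cells. The named members are the 5 largest changes per direction past the threshold, reaching 20 CPM in the higher group with 1 direction in 3 mice, and a fixed list; Mrpl9, Mrpl43, Mrpl52 and the gene pairs outside it were named after their values were seen, except where they passed that rule. The members and lists were chosen with earlier results of these data known. Gene positions are from GENCODE M21 and promoter windows from RefSeq, both GRCm38.p6.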

Additional observations from a re-analysis of the deposited data

Results flagged for a closer look

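Mrpl40 was singled out because its G2/M effect differed between the zones by a test of the difference itself, at -0.49 on the log2 scale (DZ less LZ, adjusted p = 0.030 by edgeR's quasi-likelihood test). Its G2/M level lay above its G1 level in 3 of 3 mice among LZ cells, and in 2 of 3 among DZ cells. Mrpl40 was the only 1 of 77 members to pass this test, and 0.644% of all genes tested passed in this direction. As given above, its call was lost without mouse 1 or without mouse 3, and among DZ cells its G2/M and G1 levels overlapped.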

How the results depend on the processing

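Counts of members called are given as higher and lower; scalings without TMM, the subsets without other cell types' RNA, prePC of cluster 4 and the whole PC cycle comparison were chosen after seeing the data. For LZtoDZ minus LZ, the 9 other settings gave 52 to 69 higher and 0 lower, and leaving out a mouse 51 to 60. For DZ minus LZ (7 and 1), DESeq2 gave 11 and 2, no immunoglobulin genes 16 and 7, a minimum of 20 cells 20 higher, no filter 4 and 0, the fit without the mouse block 4 and 0, no TMM 0 lower, no TMM without immunoglobulin genes 29 and 6, within phases 24 and 6, no other-type cells 15 higher, and left-out mice 1 to 4 higher and 0 to 0 lower. For preMem minus LZ (1 and 35), DESeq2 and no immunoglobulin genes gave 2 higher, no filter, no TMM and G1 cells 0 higher, and left-out mice 0 to 1 higher and 14 to 23 lower. For PC minus GC (18 and 17), no TMM gave 3 and 66, no TMM without immunoglobulin genes 31 lower, and left-out mice 17 to 18 higher and 8 to 12 lower; DESeq2 gave 22 and 14. For prePC minus GC (2 and 6), a minimum of 20 cells gave 0 lower, no other-type cells 1 and 2, cluster 4 alone 1 and 18, no filter and both scalings without TMM 1 higher, and left-out mice 1 to 2 higher and 0 to 4 lower. For G2M minus G1, DESeq2 gave 6 lower and left-out mice 6 to 7 lower, and for its difference between zones no TMM gave 6 lower, no TMM without immunoglobulin genes 7 and left-out mice 0 to 1. For cycling PC minus G1 PC (8 and 1), DESeq2 gave 1 and 0, no filter 16 and 0, no TMM 62 and 0, no TMM without immunoglobulin genes 25 higher, and left-out mice 0 to 3 higher and 0 to 1 lower. Without the replicate block no other count moved by more than 1.5 times. Directions reversed only for scaling to total UMIs without TMM: in PC minus GC, Mrpl13 -0.057, Mrpl11 -0.69, Mrps18b -0.25 and Mrps21 -0.73, and in cycling PC, Mrpl57 0.15. There the median of all genes itself moved, and the cause of the other changes was not tested. Among the named members, 17, 20 and 22 comparisons lost their call without mouse 1, 2 and 3, where 2 mice are left to fit. Sums of 10 to 22 prePC, 43 to 66 LZtoDZ cells and 33 to 58 PC per mouse limit what these states can show, and UMI counts per member in them are small.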
